A study of Mus musculus with 9 samples.

Results

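To learn which processes other than heat shock, AP-1 and lineage genes differed in acute promyelocytic leukemia (APL) cells after treatment with all-trans retinoic acid (ATRA), 3 libraries of leukemia cells from ATRA-treated mice were compared with 3 libraries from untreated mice. These are 6 of the 9 libraries of the series, and they were chosen by their labels alone. The leukemia came from hMRP8-PML/RARα transgenic mice of the FVB/NJ strain, in which the human MRP8 promoter drives the fusion protein in myeloid cells. Its cells carried GFP from the retroviral vector MigR1, had been transplanted into syngeneic recipients and were sorted from bone marrow as GFP+ cells. The ATRA group received 10 mg/kg of ATRA daily for 6 days by intraperitoneal injection, with DMSO as the solvent. The control group carried the same leukemia and was untreated, and whether it received the solvent is not stated. Whether the libraries stem from different animals is not given in the labels, and the p-values therefore reflect only the spread among these samples, which may be technical. Of 24364 named genes, 12011 had a normalized read count of at least 10 in at least 3 of the 6 libraries and were tested.

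ATRA is a ligand of the retinoic acid receptors. In APL the PML/RARα fusion protein keeps myeloid cells at the promyelocyte stage, and ATRA at therapeutic levels releases this arrest and lets the cells mature along the granulocytic line. Promyelocytes make large amounts of granule proteins, which are folded in the endoplasmic reticulum (ER) before they are sorted into granules.

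The libraries held 15850401 to 18105476 reads on genes, and the treatment groups separated on the first principal component, which carried 57.4% of the variance. The second component (21.7%) set control 2 (-43.59) apart from control 1 (29.72) and ATRA 3 (27.91). The promyelocyte marker Mpo had normalized read counts of 51490 to 271256 in the control group, with the lowest value in control 2, and of 155851 to 300003 in the ATRA group. The neutrophil granule gene Ngp was 95263 in control 2 but 16097 and 19926 in the other controls, and 12212 in ATRA 3 but 63763 and 63658 in the other ATRA libraries. Control 2 and ATRA 3 therefore stood apart in granule genes, and the counts of calls without them are given with the processing alternatives. Many marker genes of other cells were called lower in the ATRA group. Of 54 tested monocyte and macrophage genes 28 were called lower, of 46 stromal and endothelial genes 24, and of 35 T and NK cell genes 23. The summed level of the monocyte and macrophage list was 54351 to 89012 in the control group and 28964 to 40442 in the ATRA group, and that of the stromal list was 41882 to 68182 and 32603 to 40198. The eosinophil, basophil and mast cell sum did not overlap either, whereas the T and NK cell sum did (2557 to 3891 and 3011 to 3171), as did those of the erythroid, B lineage, megakaryocyte and dendritic cell lists. In bulk libraries such as these, fewer cells of a type and less RNA per cell cannot be told apart.

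Calls come from a limma fit of log2(normalized read count + 0.5) and required both a fold change over 1.5 and a p, adjusted by Benjamini-Hochberg over all genes tested, under 0.05. By this rule 125 genes (1.04% of those tested) were higher and 505 genes (4.2%) were lower after ATRA, 5.25% of those tested in all, and 115 of the higher and 385 of the lower genes were outside the heat shock, AP-1 and lineage lists. The calls differed in kind. The genes called higher had a median log2 fold change of 1.01 and a median normalized read count of 732, against 461 over all genes tested. Those called lower had a median log2 fold change of -2.6 and a median normalized read count of 45.5, and 222 of them were under 10 in every ATRA library. More than 4-fold changes were found for 12 of the higher and 338 of the lower genes. Among all genes tested, the 3 ATRA libraries lay above all 3 controls for 12.5% and below them for 11.8%. Median GC content was 57.3% for the genes called higher, 51.0% for those called lower and 50.6% for all genes tested, and 83 of the 125 higher and 451 of the 505 lower calls remained when length and GC trends were removed. The number called higher depended on every library: it was 18 without control 3, 519 without control 1, 235 without control 2, and 40, 38 and 74 without ATRA 1, 2 and 3. The number called lower was 213 without control 3 and 414 to 659 without any of the others, so that without control 1 more genes were called higher (519) than lower (497). Losses without control 3 are given below with each gene group.

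**Figure D1:**
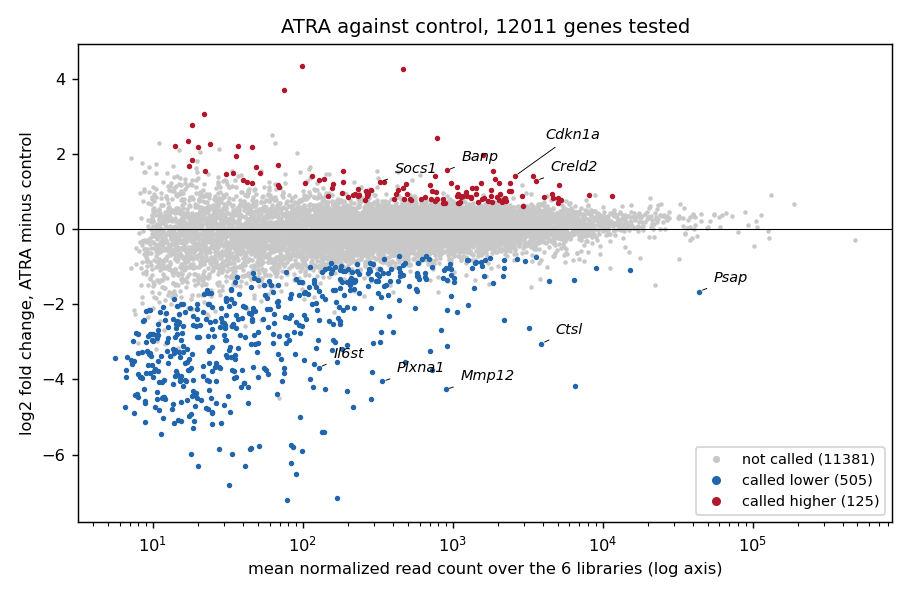
Each point is 1 of 12011 genes, with the mean normalized read count of the 6 libraries on the x axis (log axis) and the log2 fold change of ATRA over control on the y axis. The 505 genes called lower reach far below 0 at low counts, while the 125 called higher lie mostly between 0.6 and 2; the points above 3.5 are the heat shock genes Hspa1a, Hspa1b and Hspb1.

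Some genes of ER protein folding and quality control rose after ATRA. When unfolded proteins collect in the ER, cells raise chaperones and degradation factors in what is known as the unfolded protein response, through the sensors ATF6, IRE1 (Ern1) and PERK (Eif2ak3). Of 24 ER chaperone and unfolded protein response genes tested, 4 were called higher and none lower. Among all genes tested, 1.04% were called higher and 4.2% lower. Creld2 and Syvn1, 2 of the 4 ER genes called, had an ER stress response element in the promoter window. This element, the 19-base motif of CCAAT and CCACG with 9 bases of any kind between them, read on both strands, is bound by ATF6 together with NF-Y. It was found in 8 of the 21 list genes with a promoter window (38.1%) and in 37 of 27025 genes with a window (0.137%), and it was in 2 of the 94 genes called higher that had a window. Besides Creld2 and Syvn1, the list genes with the motif were Hspa5, Calr, Hsp90b1, Canx, Pdia6 and Dnajc3, none of which was called. The windows of the called genes and of Hspa5 are shown because they hold the motif in a promoter of each kind. They run from 250 bases before to 50 bases after the RefSeq transcription start (assembly GRCm38.p6, plus strand, 5′ to 3′), and capitals mark the motif.
Creld2, chr15:88819396-88819695, motif on the minus strand: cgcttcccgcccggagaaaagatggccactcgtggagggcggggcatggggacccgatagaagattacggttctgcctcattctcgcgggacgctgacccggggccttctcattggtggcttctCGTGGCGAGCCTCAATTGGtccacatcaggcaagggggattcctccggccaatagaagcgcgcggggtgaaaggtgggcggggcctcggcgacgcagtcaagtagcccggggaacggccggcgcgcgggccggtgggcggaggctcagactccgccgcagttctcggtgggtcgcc
Syvn1, chr19:6046326-6046625, motif on the plus strand: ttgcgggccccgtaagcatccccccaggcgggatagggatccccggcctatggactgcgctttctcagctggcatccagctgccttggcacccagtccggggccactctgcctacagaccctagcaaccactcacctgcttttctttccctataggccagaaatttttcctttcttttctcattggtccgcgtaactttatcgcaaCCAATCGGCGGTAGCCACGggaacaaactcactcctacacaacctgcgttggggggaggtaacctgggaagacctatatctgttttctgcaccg
Hspa5, chr2:34771840-34772139, motif on the plus strand: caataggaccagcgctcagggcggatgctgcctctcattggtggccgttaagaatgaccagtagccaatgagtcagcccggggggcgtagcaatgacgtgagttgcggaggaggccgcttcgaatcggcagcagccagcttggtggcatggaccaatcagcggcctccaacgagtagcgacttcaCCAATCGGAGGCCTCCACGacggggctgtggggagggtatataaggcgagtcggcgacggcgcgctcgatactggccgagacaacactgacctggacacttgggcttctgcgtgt
The first capital lies 126 bases before the start in Creld2, 44 bases before it in Syvn1 and 65 bases before it in Hspa5. In Creld2, with the motif on the minus strand, this is the CCACG end, and in the others it is the CCAAT end. A match describes the letters in the window and is not evidence of binding.

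Creld2, an ER-resident protein that is secreted when the ER is stressed, had normalized read counts of 2478, 2090 and 1717 in the control group and of 5188, 4843 and 5286 in the ATRA group. The groups did not overlap, and the ATRA libraries were close together (log2 fold change 1.30 ± 0.18 SE, limma adjusted p = 0.00186, n = 3 per group). Syvn1 encodes the ubiquitin ligase HRD1, which marks misfolded ER proteins for degradation, and was at 2093, 1286 and 1506 in the control group and at 3911, 3124 and 2719 in the ATRA group. Its log2 fold change was 1.01 ± 0.22 (adjusted p = 0.0211), and again every ATRA library was above every control. Sdf2l1, a partner of the ER DNAJ cochaperones, was at 8060, 4438 and 4800 before and 10630, 9972 and 10585 after ATRA (0.90 ± 0.22, adjusted p = 0.043). Control 1 was well above the other controls for Sdf2l1 but still below the ATRA libraries. Hyou1, an ER chaperone of the HSP110 family that releases ADP from the main ER HSP70, was at 10727, 7126 and 6638 and at 16633, 14990 and 12585 (0.88 ± 0.21, adjusted p = 0.0406), with no overlap. Hspa5 encodes that HSP70, also called BiP, and was at 16767, 18794 and 19553 in the control group and at 27653, 28104 and 30346 in the ATRA group, a log2 fold change of 0.65 ± 0.17 that missed the threshold at an adjusted p of 0.056. Herpud1, which brings ubiquitin ligase complexes together at the ER membrane, likewise missed it at 0.92 ± 0.24 (adjusted p = 0.0508). The ATRA libraries lay above all controls for 12 of the 24 genes, against 12.5% of all genes tested. The list median was 0.38 on the log2 scale, against 0.0078 for all genes tested.

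None of the sensor genes was called. Ern1 was at 879, 774 and 697 in the control group and at 613, 618 and 378 in the ATRA group (-0.58 ± 0.23, adjusted p = 0.197), and Atf6 had a log2 fold change of -0.48 ± 0.17 (adjusted p = 0.155). All ATRA libraries were below all controls for both genes, but neither passed the test. The transcription factor Xbp1, whose messenger RNA is spliced by IRE1, was at 5228 to 6512 in the control group and at 7256 to 7846 in the ATRA group (0.41 ± 0.16, adjusted p = 0.205). The ATF6 paralog Atf6b, chosen after its values were seen, was called higher (0.83 ± 0.19, adjusted p = 0.0295). Creld2 remained called in each alternative run, whereas without control 3 the calls of Syvn1, Sdf2l1, Hyou1 and Atf6b were lost (adjusted p of 0.139 to 0.249), and so they were without ATRA 1 (0.086 to 0.153). Those of Sdf2l1, Hyou1 and Atf6b were also lost without ATRA 2 (0.0956 to 0.13) or ATRA 3 (0.0506 to 0.113), those of Sdf2l1 and Hyou1 without control 2 (0.0595 to 0.0672) and with edgeR (0.0566 to 0.0722), whereas Hspa5 and Herpud1 were called with DESeq2 (0.0102 to 0.0108).

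Enzymes that modify new proteins in the ER formed a further group, in a list of 28 tested genes written after the values were seen. Of these 3 were called higher and 1 lower, against 1.04% and 4.2% of all genes tested. The ATRA libraries lay above all controls for 12 of the 28, against 12.5% of all genes tested. Plod3, a lysyl hydroxylase and glycosyltransferase of collagens, was at 3670, 3384 and 2498 in the control group and at 7209, 6713 and 7336 in the ATRA group. The groups were far apart (1.17 ± 0.18, adjusted p = 0.00387). Mogs, the glucosidase that trims the outermost glucose from new N-glycans, was at 3640, 2594 and 2513 and at 5341, 5099 and 5248 (0.86 ± 0.18, adjusted p = 0.0192). P4ha1, a catalytic subunit of prolyl hydroxylase, was at 686 to 947 in the control group and at 1152 to 1816 in the ATRA group (0.90 ± 0.21, adjusted p = 0.036). Prkcsh, a subunit of the next glucosidase in the pathway, had a log2 fold change of 0.81 ± 0.21 and an adjusted p of 0.0523. The called gene that fell was Serpinh1, the collagen chaperone HSP47, at 18.7 to 50.2 in the control group and 0 to 2.90 in the ATRA group (-4.41 ± 0.75, adjusted p = 0.00641). It moved with the stromal collagen gene Col1a2, which was at 216, 125 and 189 and then at 0, 4.93 and 1.94, and the part of stromal cells in the result was not tested. The call of Plod3 remained in each alternative run. Without control 3 those of Mogs (adjusted p = 0.138) and P4ha1 (0.203) were lost, Mogs was also lost without ATRA 1 (0.0734), both were lost without ATRA 2 (0.0671 to 0.102) or ATRA 3 (0.051 to 0.111), and P4ha1 was lost without control 1 (0.0676).

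**Figure D2:**
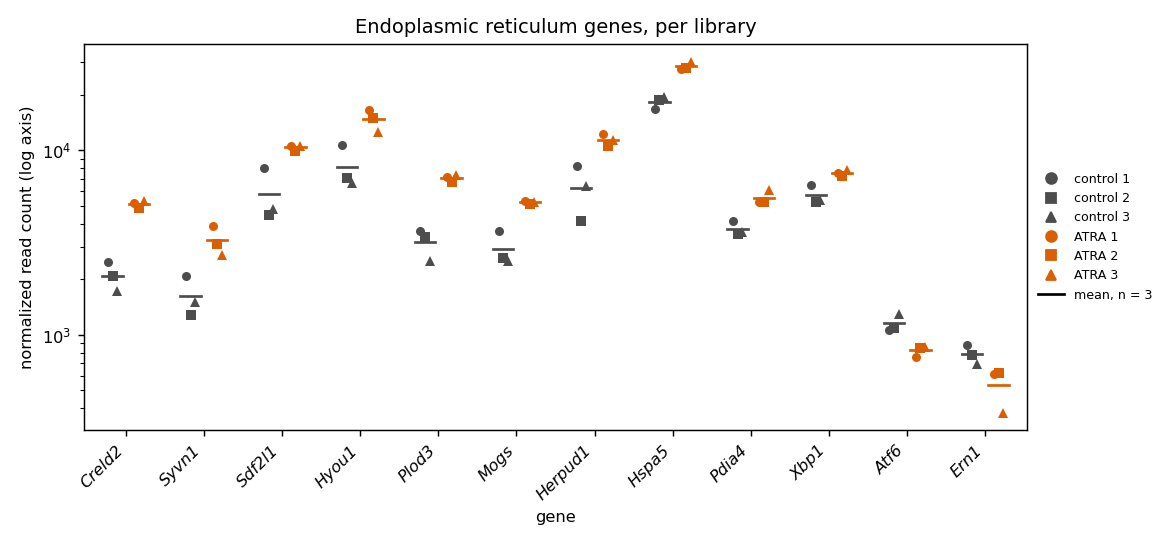
Normalized read counts (log axis) of 12 genes of ER folding, quality control and protein modification, 1 symbol per library and a line at the group mean (n = 3). All ATRA libraries lie above all controls for the 10 genes from Creld2 to Xbp1, and below all controls for the sensor genes Atf6 and Ern1.

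In cytokine signaling, the inhibitor genes Socs1, Socs3 and Cish and the adaptor gene Sh2b2 rose, and the receptor subunit genes Il6st, Il6ra and Il10ra fell. Cytokine receptors signal through JAK kinases and STAT factors, and SOCS proteins and CISH are made in response and shut the receptors off. In a list of 39 tested genes of this pathway, written after the values were seen, these were all the calls, 4 higher and 3 lower. The list median was -0.055, and among all genes tested 1.04% were called higher and 4.2% lower. Socs1, which inhibits JAK kinases directly, was at 199, 219 and 160.1 in the control group and at 396, 455 and 537 in the ATRA group (1.26 ± 0.22, adjusted p = 0.00677). Socs3, which acts at the shared receptor subunit gp130, was at 181, 170 and 167 and at 346, 293 and 425 (1.02 ± 0.21, adjusted p = 0.0194). Both had every ATRA library above every control. Cish was at 976, 1002 and 663 and at 1552, 1577 and 1695 (0.89 ± 0.19, adjusted p = 0.0236), and Sh2b2, an adaptor that binds JAK2 and receptor kinases, was at 1046, 1095 and 669 and at 2343, 2099 and 2043 (1.24 ± 0.21, adjusted p = 0.00613). Of the receptor subunits, Il6st, which encodes gp130, fell from 236, 265 and 206 to 20.1, 28.6 and 9.68 (-3.68 ± 0.38, adjusted p = 0.000443). Il6ra, the ligand-binding subunit for IL-6, fell from 1487, 1437 and 1874 to 991, 1010 and 745 (-0.81 ± 0.19, adjusted p = 0.0349). Il10ra was at 213 to 276 in the control group and at 89.5 to 134 in the ATRA group (-1.12 ± 0.25, adjusted p = 0.0256). The falls thus covered a 12.1-fold lower mean for Il6st and a 1.75-fold lower mean for Il6ra, without overlap in either.

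The calls of Sh2b2 and Il6st remained when any library was left out. Without control 3 those of Socs1 (adjusted p = 0.0561), Socs3 (0.115), Cish (0.129), Il6ra (0.215) and Il10ra (0.162) were lost, and without ATRA 1 those of Socs3, Cish, Il6ra and Il10ra (0.0678 to 0.127). Cish and Il6ra were also lost without ATRA 2 or ATRA 3, Il10ra without ATRA 2 or control 1, and Socs3 without ATRA 3, at adjusted p between 0.0525 and 0.099, and Socs1, Socs3 and Sh2b2 were lost when length and GC trends were removed (0.0501 to 0.135).

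Growth control genes moved in both directions. Cdkn1a encodes p21, an inhibitor of cyclin-dependent kinases and a target of p53, and rose from 1463, 1542 and 1226 to 4183, 3166 and 3983. Its mean was 2.68-fold higher in the ATRA group, and the call remained in each alternative run (1.42 ± 0.18, adjusted p = 0.00114). Ccnd2 and Ccnd1, D-type cyclins that carry cells through the early part of the cycle, fell from 50.2, 139 and 80.5 to 5.03, 11.8 and 8.71 (-3.28 ± 0.46, adjusted p = 0.00223) and from 50.2, 39.9 and 53.4 to 10.1, 12.8 and 17.4 (-1.82 ± 0.36, adjusted p = 0.0151). The third D-type cyclin, Ccnd3, was at 3673, 7031 and 2689 in the control group and at 8230, 6981 and 5756 in the ATRA group, overlapped between the groups and was not called (0.75 ± 0.30, adjusted p = 0.213). Without control 2, its highest control, it was called higher (1.14 on the log2 scale, adjusted p = 0.00762). Of 32 cyclin, inhibitor and E2F genes tested no others were called, and the proliferation marker Mki67 was at 1423, 3718 and 1840 and at 1420, 1202 and 429 (-1.24 ± 0.44, adjusted p = 0.158).

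Bax, a pore-forming cell death protein, and Cebpd, a C/EBP factor of granulocytes, were chosen after their values were seen. Bax was at 4945, 3582 and 3113 and at 7203, 6351 and 6275 (0.79 ± 0.19, adjusted p = 0.0409), and Cebpd was at 3320, 3796 and 2410 and at 6088, 5436 and 6469 (0.94 ± 0.19, adjusted p = 0.0181). Both were above all controls in every ATRA library. Gadd45g, a stress-induced growth inhibitor, fell from 207, 154 and 151 to 74.4, 63.1 and 61.0 (-1.35 ± 0.25, adjusted p = 0.0106). Without control 3 the calls of Ccnd1, Gadd45g, Bax and Cebpd were lost (adjusted p of 0.0556 to 0.24). Without ATRA 1 those of Ccnd1, Bax and Cebpd were lost (0.0577 to 0.157), Bax was also lost without ATRA 2 (0.115), ATRA 3 (0.0812) or control 2 (0.0559) and with edgeR (0.061), and Cebpd without ATRA 3 (0.061). When length trends were removed both were lost (Bax 0.0873, Cebpd 0.0656), and when length and GC trends were removed the log2 fold change of Bax was 0.40 (adjusted p = 0.179).

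**Figure D3:**
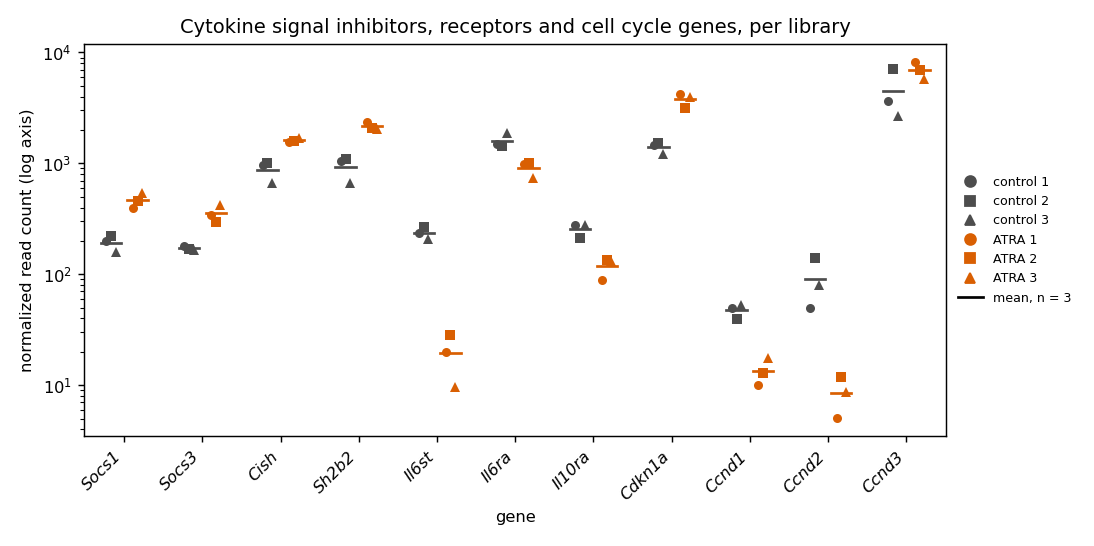
Normalized read counts (log axis) of 11 genes of cytokine signaling and the cell cycle, 1 symbol per library and a line at the group mean (n = 3). Socs1, Socs3, Cish, Sh2b2 and Cdkn1a lie higher in all ATRA libraries, Il6st, Il6ra, Il10ra, Ccnd1 and Ccnd2 lie lower, and Ccnd3 overlaps because control 2 is at 7031.

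Among the other genes with the largest rises, most were enzymes and membrane proteins with no common list. Banp, a nuclear matrix protein that binds DNA, was at 352, 700 and 379 in the control group and at 1413, 1360 and 1278 in the ATRA group (1.57 ± 0.25, adjusted p = 0.00446). Pex6, an ATPase that recycles the peroxisomal import receptor, was at 1440, 1173 and 738 and at 3119, 2778 and 2310 (1.34 ± 0.24, adjusted p = 0.00903). Atf5, a bZIP factor of the integrated stress response, was at 1469, 1364 and 860 and at 3042, 2622 and 2786 (1.23 ± 0.21, adjusted p = 0.00725). None of these overlapped between the groups, and the calls of all 3 remained when any library was left out. Car4, a membrane-anchored carbonic anhydrase, was at 840 to 927 in the control group and at 3772, 3265 and 1471 in the ATRA group, with ATRA 3 well below the other ATRA libraries (1.55 ± 0.30, adjusted p = 0.0127). Saa3, an acute-phase apolipoprotein, showed the reverse, with 774 and 744 in ATRA 1 and 2 but 1869 in ATRA 3, against 268 to 493 in the control group (1.43 ± 0.35, adjusted p = 0.0406). The other genes with large rises were Rtn4r, Slc27a3, Tmem53, Psd, Caskin2, Ttll3 and Col11a2, with log2 fold changes of 1.24 to 1.56 and adjusted p of 0.0136 to 0.0257. Psd overlaps the end of Nfkb2 by a few bases (chr19:46386577-46401646 and chr19:46379227-46386580 on mm9), and Nfkb2 also rose (0.80 ± 0.20, adjusted p = 0.0465). Without control 3 the calls of Rtn4r, Car4, Saa3, Slc27a3, Tmem53, Psd, Caskin2, Ttll3 and Col11a2 were all lost (0.087 to 0.168). Without ATRA 1 or ATRA 2 those of Slc27a3, Tmem53, Psd, Caskin2, Ttll3 and Col11a2 were lost (0.0565 to 0.109), without ATRA 3 those of Rtn4r and Saa3 (0.075 to 0.0813), without control 1 those of Car4, Saa3 and Ttll3 (0.054 to 0.0769), and without control 2 that of Saa3 (0.0685).

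Histone cluster genes had mostly positive fold changes in polyA-selected RNA, in which most histone messages are poorly captured because they lack a polyA tail. In a list written after the values were seen, 34 of 68 genes passed the filter on low values and 31 had a positive log2 fold change, with a median of 0.89. Only 3 of the 34 were called, all higher, against 1.04% of all genes tested. Hist1h2bg was at 15.05, 10.5 and 18.7 in the control group and at 63.3, 53.3 and 55.2 in the ATRA group (1.95 ± 0.35, adjusted p = 0.0085). Hist1h3d (1.85 ± 0.39, adjusted p = 0.0207) and Hist1h4i (1.10 ± 0.27, adjusted p = 0.0433) were the others, and the groups were apart for all 3. Without control 2 the list median was 0.37. Histone genes are near-identical copies, and the authors kept only reads that mapped uniquely, so the counts of these genes may be too low. Without control 3, ATRA 1 or ATRA 2 the calls of Hist1h3d and Hist1h4i were lost (0.0743 to 0.176), and Hist1h4i was also lost without control 2 (0.0537) or ATRA 3 (0.142) and with edgeR (0.0512).

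The largest falls were of genes for surface, secreted, cytoskeletal, lysosomal and nuclear proteins. Following the rule of the 15 largest falls with a mean of at least 100, Fstl1, a secreted glycoprotein of mesenchymal cells, was at 321, 113 and 568 in the control group and at 1.01, 8.88 and 0 in the ATRA group (-7.16 ± 0.93, adjusted p = 0.00148). Igf2r, the receptor that carries mannose 6-phosphate tagged enzymes to lysosomes, was at 494, 228 and 399 and at 26.1, 20.7 and 9.68 (-4.31 ± 0.41, adjusted p = 0.000292). Il6st, described above, belonged to the same set. Marcks, an actin-binding substrate of protein kinase C, was at 186, 198 and 272 and at 15.1, 20.7 and 17.4 (-3.58 ± 0.29, adjusted p = 0.000175), and Chd3, an ATPase of the NuRD chromatin complex, was at 198, 186 and 178 and at 25.1, 15.8 and 10.7 (-3.49 ± 0.34, adjusted p = 0.000351). Control 2 was the lowest control for Fstl1 and Igf2r but not for Marcks. Rgl1, Tns1, Ckb, Plbd1, Myof and Anpep fell by log2 changes of -4.74 to -2.69. The calls of all these genes remained when any library was left out.

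Receptors of guidance cues and cell surface proteoglycans were among them. Plexins are the receptors of semaphorins, and neuropilins are their coreceptors. Of 16 tested genes in a list written after the values were seen, 4 were called lower and none higher. Among all genes tested 4.2% were called lower. Plxna1 fell from 918, 342 and 668 to 51.3, 29.6 and 29.0 (-4.05 ± 0.37, adjusted p = 0.00025), and Plxnb2 fell from 441, 334 and 290.2 to 31.2, 51.3 and 41.6 (-3.09 ± 0.28, adjusted p = 0.000244). Nrp1, at 493, 1359 and 708 and then at 316, 347 and 319.5 (-1.25 ± 0.31, adjusted p = 0.0449), and Sema4d (-0.90 ± 0.21, adjusted p = 0.0321) changed less. The calls of Nrp1 and Sema4d were lost without control 3 (0.0799 to 0.172), ATRA 1 (0.0939 to 0.107), ATRA 2 (0.062 to 0.0852) or ATRA 3 (0.0841 to 0.118). Of 12 proteoglycan core proteins, also listed after the values were seen, 5 fell. Sdc3 fell from 2479, 688 and 1814 to 119, 172 and 239 (-3.10 ± 0.42, adjusted p = 0.00188), and Sdc1, a syndecan of plasma and epithelial cells, fell from 333, 105 and 230.3 to 14.1, 6.91 and 11.6 (-4.20 ± 0.45, adjusted p = 0.000525). Hspg2 (perlecan) and Bgn (biglycan) are matrix proteins and were nearly absent after ATRA. Bgn had 247 reads in the 3 controls and 2 reads in the 3 ATRA libraries, a ratio of 124 with a 95% counting interval of 34.1 to 1033. Stromal markers moved with these genes, since Col1a2 and the endothelial gene Cdh5 (78.2, 44.1 and 67.4 against 5.03, 1.97 and 6.78) also fell, while 10 of 66 stromal genes had no read in any ATRA library, and their part in the result was not tested.

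Some extracellular protease, inhibitor and chemokine genes fell. In the list of extracellular proteases and inhibitors 8 of 28 genes were called lower and none higher, against 4.2% called lower among all genes tested. The median log2 fold change was -0.75 and moved to -0.287 without control 2 and to -0.286 without ATRA 3. Mmp12, the elastase of macrophages, fell from 1782, 1277 and 2068 to 87.5, 112 and 66.8 (-4.26 ± 0.25, adjusted p = 6.17e-05). Serping1, the C1 inhibitor, Timp3, an inhibitor of metalloproteases, and Mmp13, a collagenase, were at 20.98 or more in every control and at 17.4 or less in every ATRA library. Of 19 chemokine and receptor genes 5 were called lower and none higher, with a median of -0.75. Cxcl12, the marrow chemokine that holds CXCR4-bearing cells in place, had 467 reads in the controls and 2 in the ATRA libraries, a ratio of 235 (95% counting interval 64.8 to 1948). Cxcl12 is also in the stromal and endothelial list, of whose 46 tested genes 24 were called lower. The part of stromal cells in its fall was not tested. Ccl9 fell from 3198, 1607 and 3293 to 671, 834 and 1566 (-1.42 ± 0.34, adjusted p = 0.0367). Macrophage genes moved with Mmp12 in part. C1qa fell from 464, 177 and 348 to 39.2, 22.7 and 40.7, whereas Adgre1 (F4/80) was at 686, 773 and 738 and at 684, 698 and 1080 and Csf1r at 1553 to 2765 and 1117 to 1754.5, and neither was called. The part of macrophages in the result was not tested. Without control 3 the calls fell to 3 of 28 proteases, and Serping1 (0.0657) and Ccl9 (0.234) were among the calls lost. Both were also lost without control 1 (0.0523 and 0.0959), and Ccl9 without ATRA 1 (0.0939) or ATRA 2 (0.0623).

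The cathepsin genes Ctsl, Ctss, Ctsb and Ctsh and the saposin precursor gene Psap fell, while the sialidase gene Neu1 rose. Lysosomes digest material with acid hydrolases such as the cathepsins. Of 35 genes tested, 5 were called lower and 1 higher, and the list median was 0.017. Among all genes tested 4.2% were called lower and 1.04% higher. Ctsl (cathepsin L) fell from 8864, 2798 and 9336 to 480, 732 and 1171 (-3.05 ± 0.44, adjusted p = 0.00252), and Ctss (cathepsin S), which trims the invariant chain of MHC class II, fell from 3779, 2290 and 5118 to 404, 841 and 838 (-2.43 ± 0.33, adjusted p = 0.00204). Psap, the precursor of the saposins that help sphingolipid breakdown, was at 93176, 35673 and 74826 and at 17357, 24132 and 18873 (-1.66 ± 0.32, adjusted p = 0.0126). For all of these control 2 was the lowest control and still above the ATRA libraries. Ctsb (-1.09 ± 0.26, adjusted p = 0.0345) and Ctsh (-1.04 ± 0.24, adjusted p = 0.031) were called as well. Monocyte and macrophage genes also fell, with 28 of 54 called lower, and the part of such cells in these falls was not tested. Neu1, which removes sialic acid in the lysosome, rose from 3920, 4166 and 2792 to 6929, 6732 and 5691 (0.85 ± 0.19, adjusted p = 0.028). Membrane and autophagy genes had values near 0, such as Lamp1 at -0.011 ± 0.19 (adjusted p = 0.979) on the log2 scale, and the regulators Tfeb and Tfe3 were not called. The calls of Ctsl and Ctss remained when any library was left out. Without control 3 those of Psap, Ctsb, Ctsh and Neu1 were lost (0.105 to 0.209), Ctsb was lost when any other library but control 2 was left out (0.0708 to 0.0913), Ctsh without control 1, ATRA 1 or ATRA 3 (0.0701 to 0.101), Neu1 without ATRA 1 or ATRA 2 (0.112 to 0.114) and Psap without ATRA 3 (0.0507).

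Some genes of lipid uptake and desaturation fell. Cd36, the fatty acid translocase, fell from 317, 178 and 315 to 3.02, 6.91 and 8.71 (-5.40 ± 0.42, adjusted p = 0.000152). Fabp4, a fatty acid carrier of fat cells and macrophages, fell from 262, 82.9 and 217 to 2.01, 5.92 and 8.71 (-4.99 ± 0.56, adjusted p = 0.00068), and Lpl, lipoprotein lipase, fell from 708, 825 and 530 to 69.4, 99.7 and 149 (-2.74 ± 0.29, adjusted p = 0.000551). With Fabp5, they were the 4 of 17 lipid uptake and droplet genes called, all of them lower, against 4.2% of all genes tested. Of 54 tested monocyte and macrophage genes, Cd36 itself among them, 28 were called lower, though Adgre1 and Csf1r were not. The part of macrophages in the fall of the lipid genes was not tested. Among genes of lipid synthesis, Insig1, the ER retention factor of SREBP, fell by 0.79 on the log2 scale (adjusted p = 0.0232), and the desaturase Fads2 fell by 1.40 (adjusted p = 0.0103). Scd1, a further desaturase, had 62 reads in the controls and 3 in the ATRA libraries. Fasn, which makes palmitate, overlapped between the groups (0.36 ± 0.27, adjusted p = 0.502). The calls of Insig1, Fads2, Scd1 and Fabp5 were lost without control 3 (0.0521 to 0.138). Insig1 was also lost without ATRA 1 or ATRA 2 (0.11 to 0.139), and Scd1 and Fabp5 without control 1 (0.0541 to 0.0602).

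Tlr7, Tlr8, Tlr9 and Tlr13, Toll-like receptor genes of the endosome, fell, and those of the cell surface were not called. TLR7 and TLR8 sense RNA, TLR9 senses DNA and the mouse receptor TLR13 senses bacterial ribosomal RNA. These 4 were the only genes called lower among 29 Toll-like receptor and NF-κB genes, against 4.2% of all genes tested. Tlr13 fell from 321, 425 and 636 to 63.3, 132 and 131 (-2.10 ± 0.34, adjusted p = 0.00488), and Tlr9 fell from 32.1, 37.8 and 44.0 to 9.05, 6.91 and 4.84 (-2.40 ± 0.41, adjusted p = 0.0063). Tlr7 was at 267, 403 and 474 and at 165, 147 and 181 (-1.18 ± 0.25, adjusted p = 0.0204), and Tlr8 was at 63.2, 101 and 96.4 and at 36.2, 30.6 and 30.02 (-1.39 ± 0.31, adjusted p = 0.0244). All ATRA libraries were below all controls for each of them. On the cell surface, Tlr2 had a log2 fold change of 0.21 ± 0.26 (adjusted p = 0.694) and Tlr4 of 0.19 ± 0.29 (adjusted p = 0.749), both with overlapping groups, while Tlr5 was at 25.1, 64.0 and 30.9 and at 7.04, 15.8 and 19.4 (-1.47 ± 0.50, adjusted p = 0.138). The difference between endosomal and surface receptors was not tested. Nor was the part of monocytes and macrophages, of whose 54 tested genes 28 were called lower. Nfkb2, which makes the p52 subunit, rose from 633, 671 and 433 to 1032, 944 and 1000.2. Without control 3 the calls of Tlr9, Tlr8, Tlr7 and Nfkb2 were lost (0.0606 to 0.231). Tlr8 and Nfkb2 were also lost without ATRA 1, ATRA 2 or ATRA 3 and Tlr7 without ATRA 1 or ATRA 2 (0.0563 to 0.164), and Nfkb2 was lost when length and GC trends were removed (0.128).

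Some receptors that carry inhibitory or activating motifs on myeloid cells fell as well. In a list of 31 tested genes, written after the values were seen, 9 were called lower and none higher, with a median of -0.77. Among all genes tested 4.2% were called lower, and among 54 monocyte and macrophage genes 28 were. The part of such cells in the fall of these receptors was not tested. Cd33, a sialic acid-binding inhibitory receptor, fell from 1963, 2189 and 2671 to 1100, 1084 and 717 (-1.25 ± 0.21, adjusted p = 0.00618). Pirb, a receptor of MHC class I with inhibitory motifs, fell from 886, 869 and 981 to 281, 370.0 and 533 (-1.26 ± 0.24, adjusted p = 0.0106). Lat2, an adaptor of immune receptors, fell from 715, 595 and 632 to 205, 252 and 406 (-1.23 ± 0.25, adjusted p = 0.018). The groups were apart for each of the 3. Siglec1, Clec4a3, Pira6, Cd300lg, Trem2 and Cd300lf were called at log2 fold changes of -3.003 to -0.82, and Pira6 and Pirb have near-identical relatives, so their counts are uncertain. Tyrobp, a signaling adaptor of some activating receptors such as Trem2, was at 8943, 8668 and 6754 and at 8026, 7690 and 9301 (0.044 ± 0.18, adjusted p = 0.914). Without control 3 none of the 9 was called (0.0593 to 0.203). Without control 1, 4 were lost (Siglec1, Cd300lf, Lat2 and Trem2, 0.053 to 0.0741), Cd300lf was lost without any other library as well (0.052 to 0.0866), Lat2 without ATRA 1 or ATRA 2 (0.0531 to 0.0675) and Trem2 without ATRA 1 (0.0885).

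**Figure D4:**
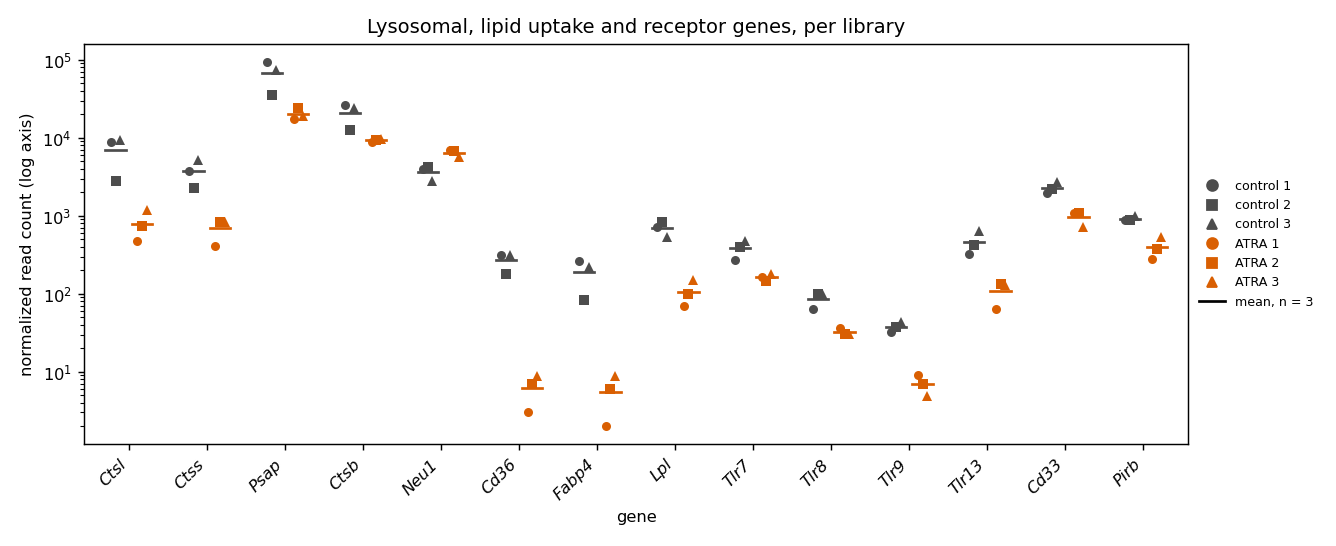
Normalized read counts (log axis) of 14 lysosomal, lipid uptake and receptor genes, 1 symbol per library and a line at the group mean (n = 3). Neu1 is the one gene that lies higher in all ATRA libraries; the other 13 lie lower, with Cd36, Fabp4 and Tlr9 under 10 in every ATRA library.

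Calls in the purine, eicosanoid and histamine, and TGF-β lists were all in the lower direction. Outside these lists, the sphingolipid gene S1pr3 (0.82 ± 0.20, limma adjusted p = 0.0358) and the phospholipase gene Pla2g4c were called higher. Without control 3 both of these higher calls were lost (0.203 and 0.0521), and that of S1pr3 also without ATRA 1, ATRA 2 or ATRA 3 (0.0993 to 0.133). Of 16 ADP-ribosyl cyclase and purine genes 5 were called lower and none higher (median -0.56), against 4.2% lower among all genes tested. Entpd1 (CD39), which degrades extracellular ATP, fell from 236, 136 and 293 to 72.4, 57.2 and 47.4 (-1.85 ± 0.32, adjusted p = 0.00723), and the ATP-gated channel gene P2rx7 fell from 142, 114 and 181 to 34.2, 47.4 and 46.5 (-1.75 ± 0.29, adjusted p = 0.00528). P2ry14, Cd38 and P2rx4 fell by 3.74, 3.22 and 1.02 on the log2 scale. Of 20 eicosanoid and histamine genes, Alox12, a lipoxygenase of platelets, and Pla2g7, which degrades platelet-activating factor, were called lower (-2.60 ± 0.36, adjusted p = 0.0021, and -1.76 ± 0.25, adjusted p = 0.00223). Pf4, a platelet chemokine, moved with Alox12 (49.2, 39.9 and 58.0 against 6.03, 1.97 and 3.87), and its part in the result was not tested. Of 24 TGF-β and BMP genes 5 were called lower and none higher. Id2, an inhibitor of bHLH factors, fell from 648, 954 and 1115 to 169, 270.4 and 197 (-2.09 ± 0.26, adjusted p = 0.00105), and Tgfbr2, the type II receptor, fell from 1028, 665 and 1049 to 376, 419 and 405 (-1.16 ± 0.21, adjusted p = 0.00939). Neither overlapped between the groups. Hmox1, which breaks down heme, fell from 1282, 1368 and 1018 to 383, 511 and 606 (-1.30 ± 0.21, adjusted p = 0.00528), and this call and those of Id2, P2ry14, Cd38, Alox12 and Pla2g7 remained when any library was left out. Without control 3 the calls of Entpd1, P2rx7 and P2rx4 (0.0556 to 0.272) and of Tgfbr2 (0.0874) were lost, and P2rx4 was also lost without ATRA 1, ATRA 2, ATRA 3 or control 1 (0.0725 to 0.164).

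Genes of retinoid handling, the pathway of the drug itself, gave few calls. Of 26 such genes 15 passed the filter on low values, 3 were called lower and none higher. Among all genes tested 4.2% were called lower. Aldh1a2, which makes retinoic acid, had 39 reads in the controls and none in the ATRA libraries, at least 4.4-fold lower when each ATRA library is set at a floor of 3 reads. Tgm2, a transglutaminase, fell from 232, 120 and 142 to 52.3, 48.3 and 62.0 (-1.54 ± 0.30, adjusted p = 0.0131), a call that was lost without control 3 (0.0738). Cyp26a1, which degrades retinoic acid, was at 8.03, 15.7 and 7.49 and at 28.2, 25.7 and 3.87, with ATRA 3 below every control (0.52 ± 0.70, adjusted p = 0.724). Rara was at 453 to 506 and at 419 to 551 (0.018 ± 0.19, adjusted p = 0.967); whether reads of the human fusion transcript were counted there is not given in the sources used here. An exact form of the retinoic acid receptor motif was also sought, a pair of AGGTCA repeats with 5 bases between them, read on both strands. It was in none of the 94 genes called higher that had a window and in 3 of 27025 genes with a window (0.0111%). A motif this rare cannot tell whether the genes called higher are direct targets.

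Adhesion, cytoskeleton and signaling lists gave single calls. Of 28 integrin and selectin genes 3 were called lower and 1 higher, among them Itgax, the CD11c integrin of monocytes and dendritic cells, at 637, 384 and 536 in the control group and 136, 174 and 131 in the ATRA group (-1.80 ± 0.24, adjusted p = 0.00183), and Itga9 (-2.86 ± 0.46, adjusted p = 0.00498). Of 35 cytoskeleton genes 3 were called lower, and the GTPase gene Rhoc fell from 215, 75.5 and 143 to 9.05, 23.7 and 21.3 (-2.96 ± 0.47, adjusted p = 0.00416). The ATRA libraries were below all controls for each of these 3 genes, and their calls remained when any library was left out. The calls were 2 lower of 23 Wnt and Notch genes, 2 lower of 20 ERK feedback genes, 2 lower of 14 cholesterol efflux genes, 2 lower of 23 iron and heme genes, 1 lower of 17 clock genes, 1 lower of 30 splicing factors and 1 higher of 19 hypoxia genes. Among 30 sphingolipid and phosphoinositide genes and 19 glucocorticoid response genes there were 2 lower and 1 higher call each, and among 23 ATF4 targets 1 of each direction. Shares such as 1 of 17 or 1 of 30 are near the 4.2% called lower among all genes tested. Without control 3 no call was left in the Wnt and Notch, ERK feedback, cholesterol efflux, clock, splicing, hypoxia, sphingolipid and glucocorticoid lists, 1 each in the iron, ATF4 target and cytoskeleton lists and 2 in the integrin list. The clock and splicing lists also had no call without ATRA 1 or ATRA 2.

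Other processes gave no call in the main fit. None of the 32 oxidative phosphorylation, 30 proteasome, 20 tRNA synthetase, 27 glycolysis and 29 nucleotide metabolism genes was called by the main limma fit, edgeR or DESeq2. Without control 1 limma called 2, 1, 2, 3 and 1 of them higher, in that order, and without control 2 it called 1 tRNA synthetase and 1 nucleotide metabolism gene higher. At an unadjusted p under 0.05, 3, 1, 4, 3 and 1 of them, in that order, were counted in either direction. With a replicate block limma called 1 glycolysis gene lower. All 32 oxidative phosphorylation genes had a positive log2 fold change, with a median of 0.21, and so had 27 of the 30 proteasome genes (median 0.19). The ATRA libraries lay above all controls for 4 and 3 of them, near the share of 12.5% among all genes tested. Atp5b, the catalytic subunit of ATP synthase, shows the overlap, with 25616, 16041 and 20354 in the control group and 25114, 23592 and 24647 in the ATRA group. None of 36 chromatin enzyme genes and none of 30 DNA repair genes was called by the main limma fit or edgeR. DESeq2 called 2 and 1 of them lower, and 5 each were at an unadjusted p under 0.05. With a replicate block limma called 2 chromatin enzyme genes lower. Of the 18 cytokine and inflammasome genes none was called by the main limma fit or edgeR, and 2 were called higher by DESeq2. Limma called 1 higher with a replicate block and 1 with the ATO libraries in the fit, and 3 were at an unadjusted p under 0.05. The median 95% half-width was 0.508 on the log2 scale, before adjustment for the number of genes tested. Differences under 0.508 were not detectable for a typical gene, and larger ones could be missed, as Herpud1 was at 0.92 ± 0.24. A call also required a fold change over 1.5. No oxidative phosphorylation, proteasome, tRNA synthetase or nucleotide metabolism gene reached that fold in the main fit. Their log2 fold changes ran from 0.029 to 0.56, -0.12 to 0.51, -0.28 to 0.49 and -0.37 to 0.55, in that order. In these lists the fold rule alone therefore excluded a call in the main fit, whatever the p. Without control 1 limma called 1 chromatin gene in each direction, 1 DNA repair gene higher and 1 cytokine gene higher, and without control 2 it called 2 cytokine genes higher.

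**Figure D5:**
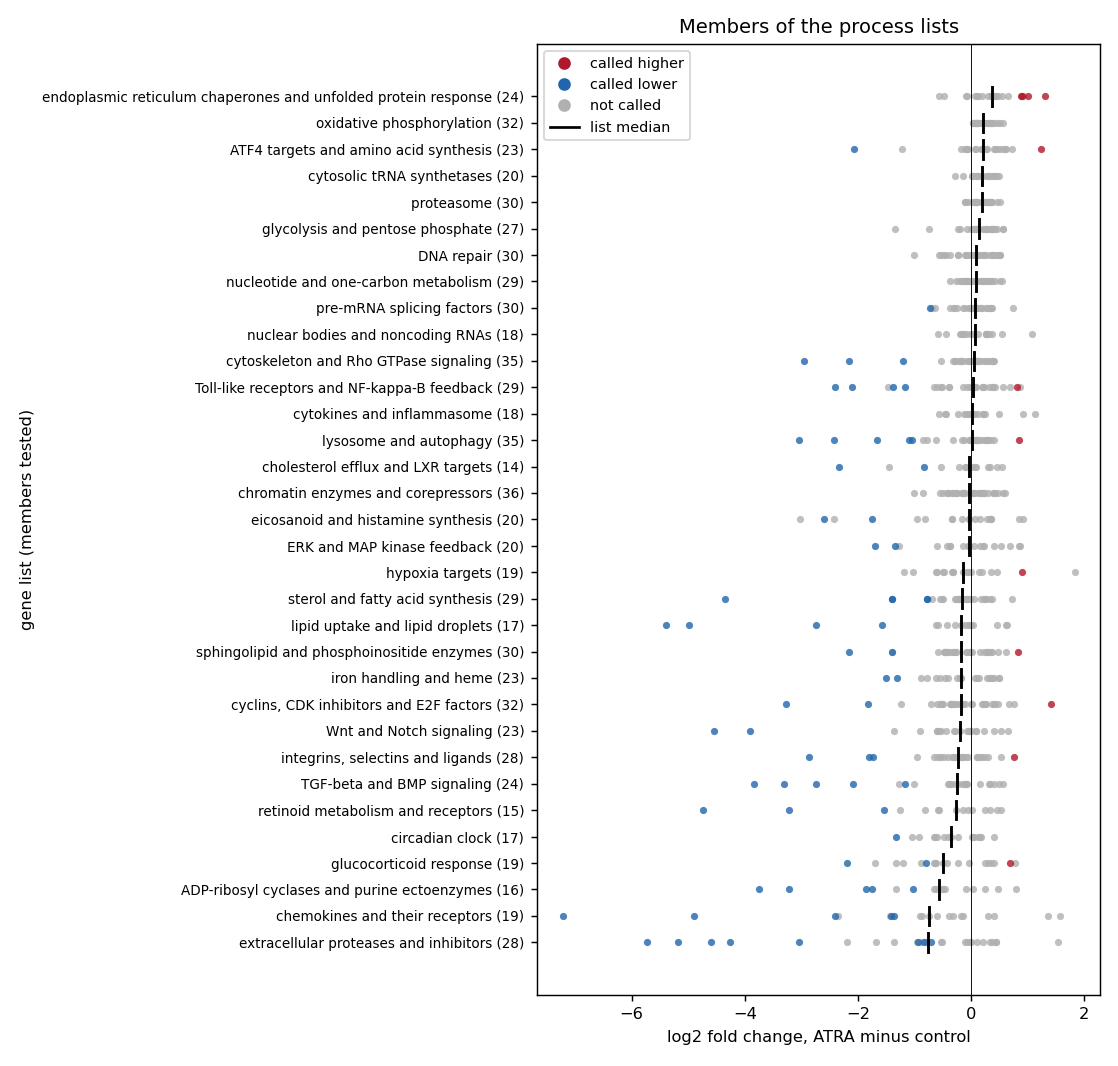
Log2 fold change (ATRA minus control) of the tested members of 33 process lists, 1 point per gene, colored by call, with a black line at each list median. The ER list has a median of 0.38 and holds 4 genes called higher, while the protease and chemokine lists have medians of -0.75 each.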

How the data were processed

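PolyA RNA of sorted GFP+ bone marrow cells had been sequenced for 3 control and 3 ATRA libraries. According to the study's methods, the authors used cutadapt for trimming and STAR for alignment to mm9, and kept uniquely mapped reads. They used HTSeq for counts per gene and DESeq2 for the comparison of groups. The versions of these tools and the annotation behind the counts were not given in the sources used here. Besides mm9, hg19 is named in the submitters' processing notes. The deposited signal values are read counts per gene and library that the authors divided by a size factor, between 0.9535 and 1.068 here. The authors' fold changes and p-values in the same table were not used. Dividing each column by its smallest step gave whole reads for 100% of values above 0, within 0.001 read. The 27 entries named as dates (up to 0.173% of the reads of a library) did not enter, and 7042 of the 24364 remaining genes had no read.

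Genes under 10 in 4 or more libraries were not tested, 0.5 was added to each value, and log2 values were fitted with limma 3.58.1 (R 4.3.3) with an intensity trend and 2 groups. Values are normalized read counts in library order 1, 2 and 3. Fold changes are on the log2(value + 0.5) scale with the standard error (SE), n = 3 per group, and understate changes of low genes. The median SE was 0.23. The fit was tested on simulated data. edgeR 4.0.16 and DESeq2 1.42.0 were run on the whole reads as alternatives.

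Members and gene lists were chosen with earlier results of these data known. Named genes were the 15 largest called changes in each direction with a mean of at least 100 outside the heat shock, AP-1 and lineage lists, and up to 4 called genes per list (2 of the highest mean where none was called). All others named were chosen after their values were seen, as were the lists of JAK-STAT, plexin, proteoglycan, ER modification, paired receptor and histone genes. Gene positions are from GENCODE vM1 (mm9), and promoter windows of RefSeq (GRCm38.p6) were matched by symbol for 9215 of 12011 tested genes; the builds were not mixed. Counting intervals are exact, at 95%, and cover counting error only. Alternatives covered thresholds, filters, pseudocounts, scalings, tools, length and GC trends, a replicate block and each library left out in turn. Fits that left out a library kept the 12011 genes, while other filters, tools and trend corrections tested other numbers of genes. The 3 ATO libraries entered only as an alternative. Values of some genes are not reported here.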

Additional observations from a re-analysis of the deposited data

How the results depend on the processing

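No named gene that was called changed direction in the alternatives run. Against 125 genes higher and 505 lower, an unadjusted p gave 541 and 1108, a mean of at least 50 gave 60 and 194 (fewer genes tested), and DESeq2 gave 253 and 821. A fold change over 2 gave 63 higher, and no filter on low values gave 825 lower. Without control 2 and ATRA 3, an alternative chosen after seeing the data, 625 were higher and 982 lower. Leaving out 1 library at a time gave 18 to 519 higher and 213 to 659 lower, and without control 1 the higher calls (519) outnumbered the lower (497). Without control 3, 17 of the 125 higher and 213 of the 505 lower calls remained. The cause was not tested. The other scalings, pseudocounts, the fit without a trend, edgeR (118 and 552), the fit with the ATO libraries and the removal of length trends, and of length and GC trends (chosen after seeing the data), stayed within 1.5 times of both counts. Without the intensity trend 66 of the 125 higher and 439 of the 505 lower calls remained. Among genes described here, Syvn1, Sdf2l1, Hyou1, Atf6b, P4ha1, Mogs, Cish, Il6ra, Bax, Cebpd, Saa3, Ttll3, Col11a2, Hist1h4i, Ctsb, Ctsh, Neu1, Nfkb2, Siglec1, Cd300lf, Trem2, Nrp1, Sema4d, S1pr3, P2rx4, Ccl9 and Gna15 lost their call there. With length and GC trends removed, Atf6b, Socs1, Socs3, Sh2b2, Bax, Car4, Ttll3, Ctsb, Nfkb2, Siglec1, Ccl9, Lim2 and Ngb lost theirs.

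The replicate numbers are shared by both groups, but the labels do not say what a number stands for. Deviations of same-numbered libraries from their group means correlated at -0.0526, 0.228 and 0.267. Controls 2 and 3 correlated best with the ATRA library of their own number, and control 1 with ATRA 3 (0.151). With 3 libraries per group, these values cannot tell whether libraries of a number share more than the number. With the replicate block 238 genes were called higher and 635 lower.

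With 3 libraries per group, a median 95% half-width of 0.508 on the log2 scale limits what can be seen. Genes at a few reads carry counting error on top of this.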

Other observations

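Among genes of low abundance, 7 outside the lists rose more than 4-fold and were chosen after their values were seen. Ctf1, cardiotrophin 1, is a cytokine of the IL-6 family that signals through gp130, and was at 9.03, 9.44 and 5.62 in the control group and at 49.3, 39.5 and 32.0 in the ATRA group (log2 fold change 2.27 ± 0.40, limma adjusted p = 0.00809). Its receptor subunit gene Il6st fell in the same libraries. Itga10, a collagen-binding integrin subunit, was at 16.1, 18.9 and 13.1 and at 95.5, 65.1 and 64.9 (2.19 ± 0.33, adjusted p = 0.00363), and Tm6sf2, which takes part in lipid export in liver, was at 6.02, 6.29 and 3.75 and at 31.2, 26.6 and 29.0 (2.36 ± 0.42, adjusted p = 0.00835). Groups did not overlap for any of the 7, and the calls of Itga10 and Tm6sf2 remained when any library was left out. The others were Lim2, Pla2g4c, Ngb and Oas1h, at 2.20 to 3.08. Without control 3 the calls of Ctf1, Lim2, Pla2g4c, Ngb and Oas1h were lost (adjusted p of 0.0506 to 0.143). Oas1h rested on ATRA 3 (40.7 against 16.1 and 14.8) and was lost without it (0.115), as was Lim2 (0.0735), both were lost without control 1 (0.0581 to 0.0615), and Ngb was lost without ATRA 1 (0.121).

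A further 3 genes that rose were chosen after their values were seen. Orai1, the pore of store-operated calcium channels, was at 1906, 1686 and 1194 in the control group and at 3472, 3031 and 3037 in the ATRA group (1.02 ± 0.20, adjusted p = 0.0125), and Gna15, a Gq-class alpha subunit of blood cells, was at 1060, 687 and 724 and at 1796, 1632 and 1403 (0.99 ± 0.21, adjusted p = 0.0186). Lbp, which hands lipopolysaccharide to CD14, was at 1726, 1143 and 1379 and at 2973, 2828 and 2351 (0.95 ± 0.19, adjusted p = 0.0159). Every ATRA library was above every control for these 3 genes. All 3 calls were lost without control 3 (0.0756 to 0.134), and those of Gna15 and Lbp without ATRA 1 or ATRA 2 (0.0623 to 0.0802).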
